A study of Caenorhabditis elegans with 2 samples.

Results

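LIN-35 binding inside introns, away from gene starts, was described from chromatin immunoprecipitation with sequencing (ChIP-seq) of whole, mixed-sex first-stage (L1) larvae of Caenorhabditis elegans. The labels give 1 group of 2 biological replicates. The animals were of strain YL409, which has the unc-119 allele ed3 and the transgene vrIs60. This transgene holds LIN-35 fused to GFP and FLAG under the lin-35 promoter and 3'UTR, and an unc-119 (+) copy. No mutation of the endogenous lin-35 gene is listed in the labels. They name lin-35 as the antibody's target, and it is not stated whether the tag was used. No untagged or other strain was analysed here, so peaks were compared with other peaks and with the genome. The values are peak positions and a signal value that the authors gave each peak, which ranks peaks within a list (rank 1 is the strongest). Read depth is unknown.

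A peak was taken when its summit lay on an autosome, inside a protein-coding gene but in no exon of that gene's transcripts. It also had to lie more than 500 bp from the 5′ end of every protein-coding, tRNA, snoRNA and snRNA gene. This held for 434 of the 3838 peaks that passed the authors' threshold of reproducibility between replicates (IDR), and thus for 12.9% of the 3353 autosomal peaks (95% interval 11.8 to 14.1%). Of the other autosomal peaks, 1922 lay within 500 bp of a protein-coding start (start peaks), 786 between genes (distal intergenic), 162 near a small RNA gene and 49 in exons. Intervals are exact and cover counting error only. Signal values played no part in choosing the intronic peaks beyond the IDR threshold. Nearest to the distance limit on the inside were a peak in zfp-1 at 503 bp from a gene start (signal 151) and a peak in uba-5 at 517 bp (signal 122). Just outside it were peaks in K10C3.4 at 485 bp (signal 179) and in col-72 at 482 bp (signal 183). The label held with 2 qualifications. At 3 of the intronic summits an exon of another protein-coding gene lay across the position, and 36 summits lay inside some other annotated gene, mostly a noncoding RNA gene (26).

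LIN-35 is the worm member of the retinoblastoma family of pocket proteins. With E2F and DP proteins and the MuvB core it forms the DREAM complex, which binds cell cycle gene promoters through E2F sites and CHR elements and represses those genes. Worm introns can also hold enhancers and the promoters of shorter transcripts that start within a gene. Intronic binding therefore need not be far from a site of transcription initiation, and the positions are given below against starts of whole genes and of single transcripts.

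Sequences at the summits held 3 kinds of short match, shown here because the motif results turn on them. Each run is 27 bases of the ce11 build (WBcel235 reference), 5′ to 3′ on the named strand, centred on the match nearest to the summit. The first set has an E2F match in capitals (TTCCCGC or TTCGCGC or TTGCCGC or TTGGCGC), and any CHR match (TTTGAA or TTCGAA, either strand) is in capitals too. These 10 are the strongest intronic peaks with an E2F match, leaving out those for which no sequence is printed here.
pptr-2 (chrV:11029515-11029541, minus strand): gaaTTTGAAtTTCCCGCgtaaatgctc
ptpn-22 (chrIV:1738449-1738475, minus strand): agttTTCAAATTCGCGCcgctgcaacg
gly-9 (chrIII:11286294-11286320, minus strand): atgaTTTGAATTGCCGCgcaaaaaggc
Y75B8A.25 (chrIII:12278978-12279004, plus strand): gaatttttttTTGGCGCgcaTTTGAAa
Y69A2AR.1 (chrIV:2670874-2670900, minus strand): aaaaTTCAAATTCCCGCggaaaaaagc
ari-1.4 (chrIV:15526689-15526715, minus strand): taaTTTGAAtTTCGCGCgttttcagct
F53F1.3 (chrV:13409275-13409301, minus strand): taaTTTGAAtTTCGCGCgtgaatgagt
M01H9.3 (chrIV:4471102-4471128, minus strand): aaaTTTGAAaTTGGCGCcactttttga
ect-2 (chrII:10783368-10783394, plus strand): caatcagctgTTCGCGCcggtttcggt
vhp-1 (chrII:5337140-5337166, minus strand): gtttttcgttTTCCCGCctctctctcg
In 7 of these 10 the CHR letters ended 0 to 3 bases before the E2F letters. In Y75B8A.25 the CHR letters came after the E2F letters, and this was not counted. The counted spacing was defined after these sequences were seen. In ect-2, a RhoGEF gene of cytokinesis, and in vhp-1, a MAP kinase phosphatase gene, the E2F match stood without CHR letters in the run.

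The second set holds AGACGCAG in capitals, an 8-letter word found by scanning all 6-letter and 8-letter words at the summits against their flanks. Its share at these summits is therefore a selected value.
epg-9 (chrIV:2602139-2602165, minus strand): gacactggtgAGACGCAGacatcaaaa
mnk-1 (chrII:10552203-10552229, minus strand): agaagtttgtAGACGCAGacactaaaa
lron-13 (chrIII:13530232-13530258, minus strand): ttgctgttagAGACGCAGacaatcact
F53C11.5 (chrV:13789584-13789610, minus strand): tgtatcgtcgAGACGCAGacaaaaaga
mnk-1 (chrII:10548978-10549004, minus strand): gttaggcaggAGACGCAGagactcaag
These 5 are the strongest of those that could be shown. The third set gives 3 examples of GAGAGA, in capitals, picked from the 10 strongest such peaks to show runs beyond the word itself.
zfp-1 (chrIII:8795921-8795947, plus strand): gggttcgcatGAGAGAcatagagaagc
nhr-19 (chrII:9603594-9603620, plus strand): tttcatttttGAGAGAaaagacagtgt
spop-1 (chrIII:10096660-10096686, minus strand): gacgggagaaaGAGAGAcacacaaaag
Of the 79 intronic summits with AGACGCAG within 50 bp, 52 (65.8%) also had GAGAGA, against 44.0% of all 434 intronic summits. Of the 191 with GAGAGA, 27.2% also had AGACGCAG, against 18.2% of all 434. Both words were chosen with results of these data known, and whether they go together was not tested.

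The intronic peaks were weaker than start peaks and close in strength to distal intergenic ones. Their signal ran from 56.1 to 1686 with a median of 94.96 (95% interval 90.1 to 101), against medians of 179 (167 to 192) for start peaks and 104 (97.2 to 109) for distal intergenic peaks. Their median rank was 2507 (2359 to 2624), against 1322 (1223 to 1414) at starts and 2316 (2201 to 2466) between genes. Among the stronger 1919 IDR peaks stood 149 intronic peaks (34.3%), 64.4% of start peaks and 37.3% of distal intergenic peaks. Their share of autosomal peaks increased down the list, from 4.77% (3.49 to 6.35%) of ranks 1 to 959 through 12.5% and 14.9% to 21.0% (18.2 to 24.0%) of ranks 2879 to 3838. Below the IDR threshold, in the rest of the pooled list, it was 28.4% at ranks 3839 to 10000, 26.0% at ranks 10001 to 20000 and no higher beyond them. Introns away from starts make up 29.6% of autosomal bases (24.4 of 82.6 Mb). The 4 IDR shares thus lay below the base share with intervals that did not reach it, and the weak pooled peaks lay closer to it.

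**Figure D1:**
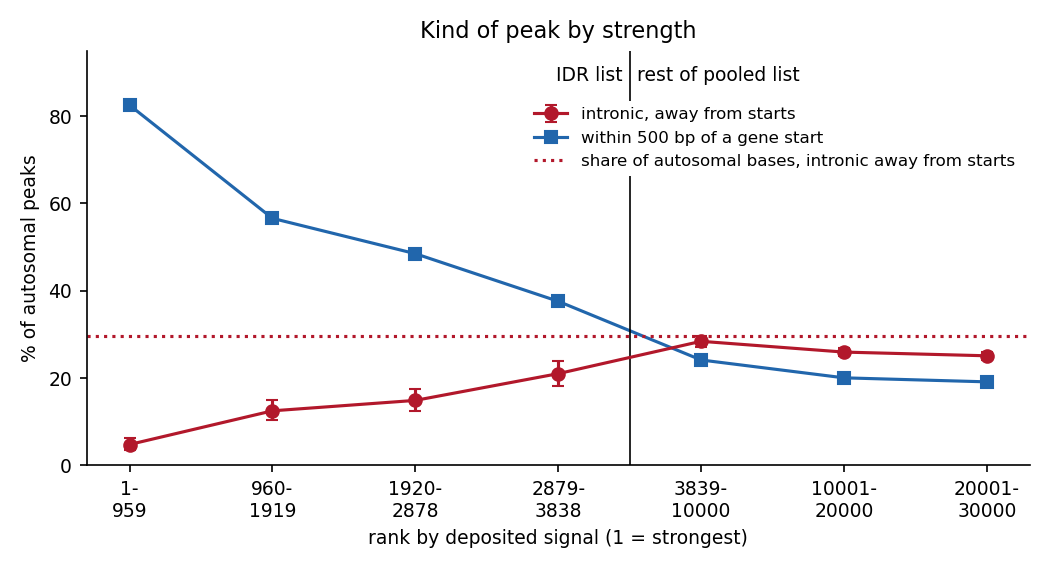
Share of autosomal peaks (%) that were intronic and away from starts (circles, bars are exact 95% intervals) or within 500 bp of a gene start (squares), by rank of the deposited signal; the dotted line is the share of autosomal bases in introns away from starts. The intronic share climbed between 4.77% and 21.0% within the IDR list, while the start share declined between 82.5% and 37.6%.

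In the separate replicate lists, signals at the intronic peaks had a lowest, median and highest value of 2.67, 24.2 and 535 in replicate 1 and of 21.0, 68.4 and 1159 in replicate 2. Each list has its own scale, so these do not compare the replicates. A replicate 1 peak overlapped 407 of the 434 and a replicate 2 peak 433, and 406 (93.5%; 90.8 to 95.7%) had both, against 98.5% of start peaks and 96.6% of distal intergenic peaks. When only the 3838 strongest peaks of each replicate counted, 67.1% of intronic peaks (62.4 to 71.5%), 85.4% of start peaks and 65.3% of distal intergenic peaks were found in both. Ranks in the 2 replicates correlated across the 406 matched intronic peaks (Spearman rho 0.65), across 1893 start peaks (0.88) and across 759 distal intergenic peaks (0.70). These values describe peaks within 2 libraries, and the intronic peaks cover a narrower range of strength than start peaks. A few intronic peaks share a replicate peak with a neighbour: 6 in replicate 1 and 8 in replicate 2.

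**Figure D2:**
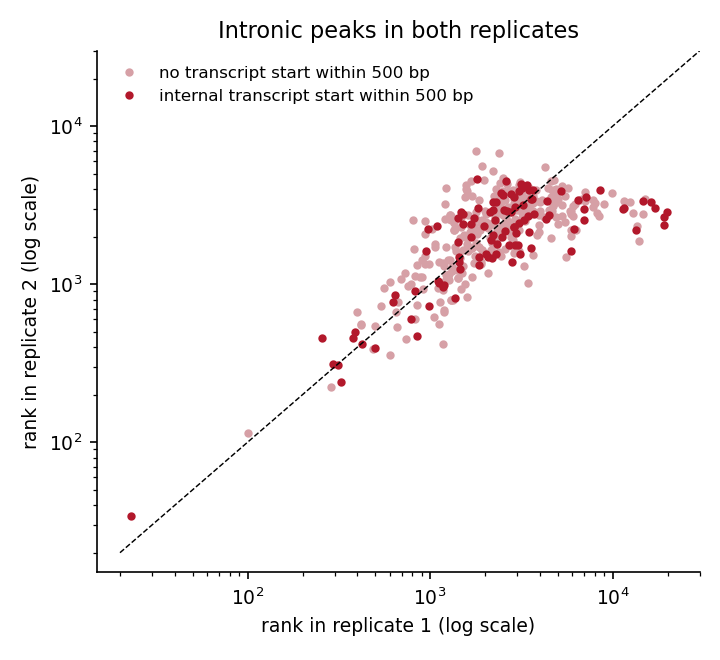
Rank of the 406 intronic peaks found in both replicates in the list of replicate 1 (x, log scale) and replicate 2 (y, log scale), dark where a transcript of a protein-coding gene starts within 500 bp; the dashed line marks equal rank. The strongest lie near the line, and a tail of peaks has ranks beyond 10000 in replicate 1 alone.

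The strongest intronic peak lay in intron 2 of wht-3, a gene of the White-like family of ABC transporters (chromosome III, 4150848 to 4151230). Its signal was 1686 in the pooled data (rank 28 of all IDR peaks), 535 in replicate 1 and 1159 in replicate 2. The summit was 568 bp from the gene's own 5′ end but only 138 bp upstream of a shorter transcript. Next came slc-36.4, of a family of amino acid transporters, with a signal of 1152 (363 in replicate 1 and 794 in replicate 2), and set-18, a SET-domain gene, with 756 (196 in replicate 1 and 547 in replicate 2). Both of those genes also had a LIN-35 peak at their start. The fourth was in pptr-2, a B56-type regulatory subunit of phosphatase PP2A, with 703 (179 in replicate 1 and 515 in replicate 2), and it is the first sequence shown above. All 15 strongest intronic peaks ranked between 23 and 844 in replicate 1 and between 34 and 556 in replicate 2.

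The rest of these 15 lay in T26C5.3, Y65A5A.2 (2 peaks, 514 bp apart, signals 618 and 531), scc-2, ptpn-22, gly-9, nurf-1, epg-9, spop-1, drap-1 and Y75B8A.25, with signals between 422 and 618. Among them, scc-2 encodes the cohesin loader, nurf-1 the large subunit of the NURF remodeller and epg-9 an autophagy factor. In scc-2 the peak was in intron 1 with a signal of 499 (122 in replicate 1 and 364 in replicate 2) and its summit lay 8312 bp from the gene's 5′ end and 155 bp upstream of a shorter transcript. In nurf-1 it had a signal of 486 (139 in replicate 1 and 345 in replicate 2) and lay 274 bp upstream of a transcript start. Of the 15, 10 lay within 500 bp of an internal transcript start, and 9 of these upstream of it. An E2F match was present in 6 of the 15, a CHR match in 10 and GAGAGA in 1, the epg-9 peak.

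Over all 434, 113 intronic peaks (26.0%; 22.0 to 30.4%) lay within 500 bp of the start of a shorter protein-coding transcript, which the choice of peaks did not use. Only 9.27% of intron bases away from gene starts lie that near to one. Per Mb of such intron this gave 49.9 peaks (41.2 to 60.0) near internal starts and 14.5 (12.9 to 16.2) elsewhere. The side was uneven as well: 107 of the 113 (94.7%; 88.8 to 98.0%) lay upstream of the internal start, against 60.6% of the bases in reach. The median distance upstream was 201 bp (175 to 239), against 163 bp (157 to 169) for the start peaks that lay upstream of their gene, which were 90.01% of start peaks. Peaks near an internal start were of much the same strength as the rest, with median ranks of 2407 (2085 to 2757) and 2543 (2359 to 2682). For 321 peaks no start of a protein-coding transcript lay within 500 bp. A further class of start, that of a miRNA, lay within 500 bp of 12 of the 434. Apart from tRNA, snoRNA and snRNA genes, distances to starts of other noncoding RNA genes were not measured.

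First introns held 243 of the 434 (56.0%; 51.2 to 60.7%) but 27.3% of the intron bases away from starts, where an intron counted as first if it was first in any transcript. The density was 36.4 peaks per Mb (31.97 to 41.3) in first introns and 10.8 (9.30 to 12.4) in later ones. With introns numbered in the longest transcript that has an intron at the summit, 163 (37.6%) were first. The share of intron bases under that numbering is not given here. An internal start makes the intron after its first exon a first intron, so these measures are not independent. Restricted to the 321 peaks away from every protein-coding transcript start, 50.8% (45.2 to 56.4%) were in a first intron. Summits lay a median of 3988 bp from the 5′ end of the host gene (517 to 40142), 39.4% of the way along it, and 615.5 bp from the nearest exon edge. The median distance to the nearest start of any protein-coding gene was 3055 bp and the greatest was 25831 bp.

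**Figure D3:**
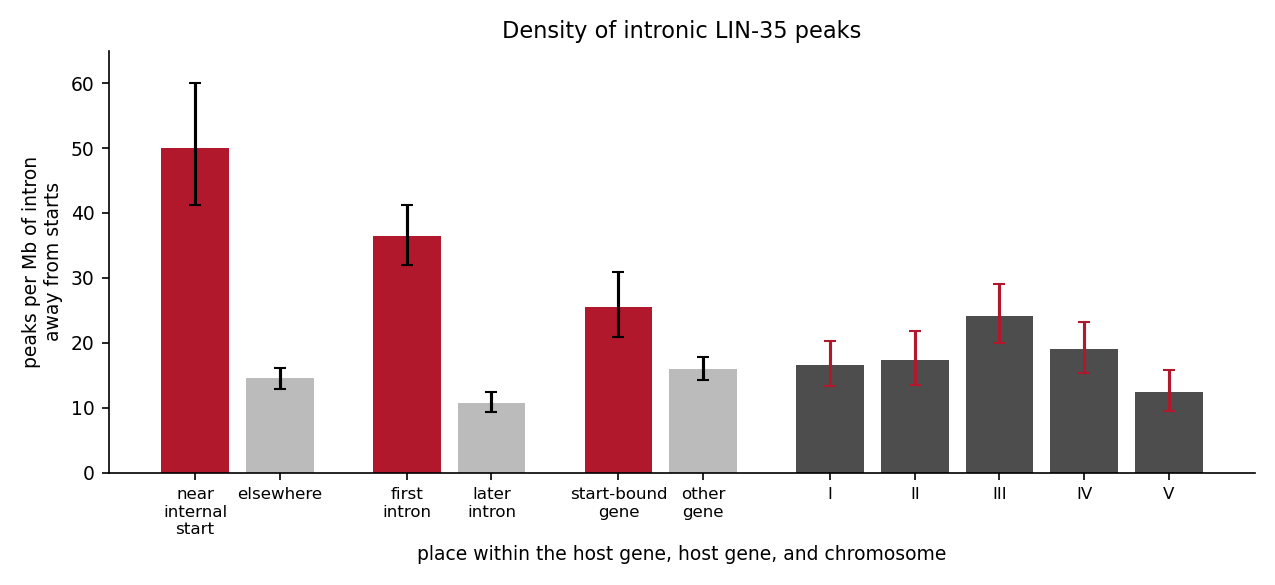
Intronic LIN-35 peaks per Mb of intron away from gene starts (bars start at 0; error bars are exact Poisson 95% intervals), by distance to an internal transcript start, by intron, by whether the host gene also had a LIN-35 peak at its start, and by autosome. Peaks were densest within 500 bp of an internal start (49.9 per Mb), and chromosome III had more per Mb (24.2) than chromosome V (12.4).

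By chromosome, the density was 24.2 peaks per Mb of such intron on III (115 peaks; 19.96 to 29.0), 19.0 on IV (96 peaks), 17.3 on II (71 peaks), 16.5 on I (89 peaks; 13.3 to 20.3) and 12.4 on V (63 peaks; 9.50 to 15.8). The density intervals of III and V did not overlap, while those of II, I and IV overlapped each other. As a share of all IDR peaks on the chromosome, intronic peaks were 14.8% on III (12.4 to 17.5%) and 11.4% on V (8.88 to 14.4%), and these intervals did overlap. Repeat-like sequence was less frequent at the summits: 21.9% of intronic summits (18.1 to 26.1%) fell on soft-masked bases of the RefSeq genome, against 53.7% of the intron bases in which they could lie. Start peaks had 16.5% and distal intergenic peaks 19.1%, and no share over bases of those kinds is given here. The sources used here do not say how reads that map to several places were treated, and their part in these densities was not tested.

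The 434 peaks lay in 333 host genes. Of these genes, 270 had 1 peak and 63 had 2 or more, which together hold 166 of the peaks. Hosts were long genes, with a median of 5939 bp of intron away from starts (5091 to 6872) against 617 bp (600 to 632) in the other 14251 genes with any. Of all 14584 genes with such intron, 2.28% were hosts, but 14.2% (207 of 1456) of those with more than 4231 bp of it. Densities per Mb of such intron are therefore given beside counts of host genes.

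A LIN-35 peak at the gene's own start was present in 76 of the 333 hosts (22.8%; 18.4 to 27.7%), above the 14.4% of all 17242 autosomal protein-coding genes. This difference was not seen among the genes with the most intron, where 18.8% of 207 hosts (13.8 to 24.8%) and 19.6% of 1249 other genes were bound at the start. Among genes with more than 1711 and up to 4231 bp, 23.5% of 68 hosts (14.1 to 35.4%) and 14.6% of 2119 other genes were. It was widest among genes with more than 638 and up to 1711 bp, with 41.9% of 43 hosts (27.01 to 57.9%) and 11.6% of 3595 other genes. In genes with less intron 3 of 15 hosts and 14.3% of 7288 other genes were bound at the start. Per Mb of intron, peaks numbered 25.5 (20.9 to 31.0) in genes bound at their start and 15.9 (14.3 to 17.7) in the others.

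The gene with the most intronic peaks was ppfr-1, a regulatory subunit of phosphatase PP4, with 7 peaks spread over 9730 bp and signals from 75.9 to 204. The strongest had a signal of 204 (71.0 in replicate 1 and 129 in replicate 2). A further pair of its peaks (signals 75.9 and 101), with summits 6831 and 7031 bp from the gene's 5′ end, matched the same peak in each replicate list. Next was daf-5, the Sno/Ski-type partner in the TGF-beta dauer pathway, with 6 peaks over 13755 bp. Their signals ran from 58.0 to 126, and 5 of the 6 lay in the long first intron. Among genes with 5 peaks, hlh-30 encodes the TFEB-type regulator of autophagy and lysosomes, let-526 an ARID subunit of SWI/SNF complexes and zfp-1 the AF10-type partner of the DOT-1.1 methyltransferase. Of these 3 genes zfp-1 had the strongest peaks, with signals of 156, 330, 199, 151 and 216 in order along the gene. In replicate 1 they had 56.3, 54.4, 42.4, 64.6 and 50.7, and in replicate 2 they had 101, 271, 155, 68.4 and 163. The same peak of the 5 was highest in the pooled data and in replicate 2, but not in replicate 1.

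Genes with 4 intronic peaks were T28B11.1, aakg-1 (an AMP kinase gamma subunit), ell-1 (an ELL-type elongation factor) and pqn-41. In ell-1, 1 peak stood out with a signal of 388 (121 in replicate 1 and 278 in replicate 2), while the other 3 were between 61.0 and 136. In pqn-41 all 4 lay in the same intron, with signals between 120 and 194. A further 14 genes had 3 peaks each: K01F9.2, Y111B2A.12, Y67D8A.2, cct-5, fkh-7, frl-1, gei-4, kin-1, mnk-1, ncl-1, nhr-19, par-1, unc-94 and vhp-1. Their best ranks ran from 543 in Y111B2A.12 to 2973 in frl-1. Another LIN-35 summit lay within 1000 bp of 13.4% of intronic peaks (10.3 to 16.9%), against 9.001% of start peaks and 13.9% of distal intergenic peaks.

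**Figure D4:**
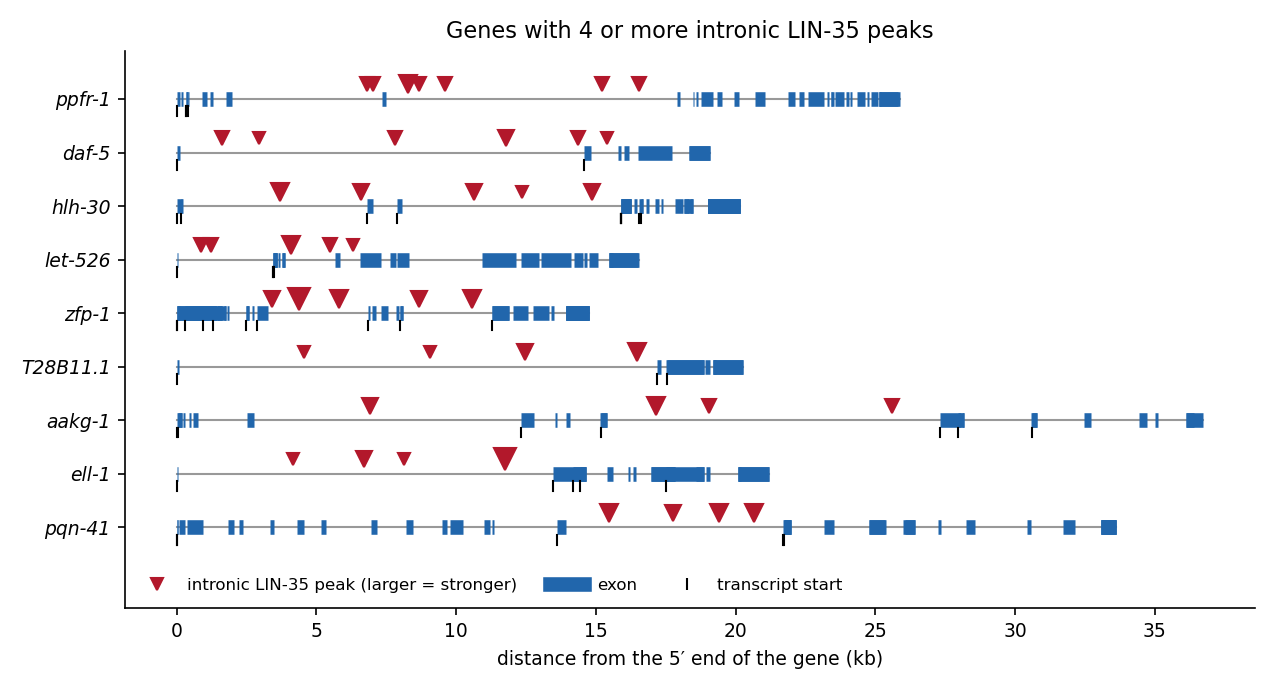
Position of intronic LIN-35 peaks (triangles, area larger with the pooled signal) in the 9 genes with 4 or more, drawn 5′ to 3′ from the 5′ end of the gene (kb), with exons of all transcripts as boxes and transcript starts as ticks. The 6 peaks of daf-5 spread over 13755 bp, and the 4 of pqn-41 sit within 5204 bp.

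Gene lists of pathways were then read against the 2.28% of genes that were hosts and the 17.8 peaks per Mb of all genes (16.1 to 19.5). Density intervals take peaks as independent, which peaks of the same gene may not be. Genes of insulin, TOR and nutrient signalling had 5 hosts among 19 (26.3%; 9.15 to 51.2%) and 11 intronic peaks, or 82.2 per Mb of their intron (41.1 to 147). Their strongest peaks were in daf-2, the insulin receptor, with a signal of 228 (66.4 in replicate 1 and 154 in replicate 2), and in skn-1, an Nrf-type stress regulator, with 224 (73.2 in replicate 1 and 151 in replicate 2). The other hosts were hlh-30, daf-16, the FOXO factor of the pathway, and let-363, the TOR kinase. Of the 11 peaks, 5 belong to hlh-30 alone, and the median rank was 1652 against 2507 over all intronic peaks.

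Genes of the Wnt, Notch, EGF, TGF-beta and Hedgehog-related pathways had 7 hosts among 49 with 13 peaks (51.1 per Mb; 27.2 to 87.3), 6 of them in daf-5. The strongest lay in mpk-1, the ERK kinase, with a signal of 248 (76.5 in replicate 1 and 167 in replicate 2), and in daf-14, a Smad, with 243 (37.5 in replicate 1 and 194 in replicate 2). Somatic transcription factors had 5 hosts among 48 (33.0 per Mb; 13.3 to 68.1), led by mef-2 (signal 221) and hif-1 (89.7). Synapse genes had 3 among 29, led by rab-3 (180) and syd-1 (114), and axon guidance and adhesion genes 3 among 35, led by hmr-1 (105) and unc-76 (63.9). Muscle genes had 2 among 24, in lev-11 (94.4), a tropomyosin, and dys-1 (69.8), the dystrophin gene. Per Mb of intron, synapse genes had 14.7 peaks (3.04 to 43.1), axon genes 9.06 (1.87 to 26.5) and muscle genes 13.3 (1.62 to 48.2). With 3, 3 and 2 peaks, these intervals all hold the value of all genes.

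Cell cycle and DNA replication genes, the class for which DREAM is best known, had 1 host among 43 with such intron (2.33%), close to the 2.28% of all genes. This was cdk-2, with a weak peak of signal 57.8 (16.9 in replicate 1 and 36.6 in replicate 2), and gave 14.3 peaks per Mb (0.361 to 79.4). Of the 45 autosomal genes of that list, 29 (64.4%) had a LIN-35 peak at their start, against 14.4% of all genes. Chromatin and synMuv genes had 1 host among 34 (2.94%), nurf-1 with 2 peaks, which came to 27.1 per Mb (3.28 to 98.0). At their start 16 of the 34 (47.1%) were bound. In both lists the intronic values did not differ from those of all genes beyond their intervals. This holds for the listed genes only, and the lists do not cover these classes as a whole. Of the hosts named above, the chromatin list leaves out let-526 and zfp-1, with 5 peaks each, and set-18. The cell cycle list leaves out scc-2 and ect-2. These are examples, and further hosts of both kinds stand outside the lists. Homeobox ceh genes (0 of 43) and cuticle collagens (0 of 65) had no intronic peak, which allows host shares of up to 8.22% and 5.52% and densities of up to 48.2 and 105 per Mb. Ribosomal protein genes have too little such intron (0.0022 Mb in 22 genes) for an intronic peak to be looked for. Nuclear receptors had 5 hosts among 244 (23.4 per Mb; 9.41 to 48.2), led by nhr-19 (signal 292) and nhr-46 (189).

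Among genes grouped by name, unc genes had 7 hosts among 77 (19.4 per Mb; 9.31 to 35.7), led by unc-108 (signal 291) and unc-119 (264; 101 in replicate 1 and 164 in replicate 2). The transgene holds a copy of unc-119, so reads from either copy could add to that peak, and their parts cannot be told apart here. Genes named lin had 3 hosts among 40 (26.5 per Mb; 7.22 to 67.9), led by lin-42 (130) and lin-11 (70.7), and genes named let had 3 among 32 (93.2 per Mb; 37.4 to 192), with 5 of 7 peaks in let-526.

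An E2F match lay within 50 bp of the summit of 47 intronic peaks (10.8%; 8.07 to 14.1%). It was present at 13.7% of all autosomal IDR peaks, 16.8% of start peaks and 9.67% of distal intergenic peaks. In windows 500 bp to each side of the intronic summits it was 3.802% (2.63 to 5.30%), and over every intron position away from starts it was 4.20%. The letters of the E2F motifs read backwards are a control of the same composition. They lay at 4.61% of intronic summits, against 0.922% of flanks (0.399 to 1.81%) and 1.41% of all such intron positions. Relative to these backgrounds, the control was raised no less than the E2F letters were. The summits are richer in G and C, with a median of 46.5% GC in the 101-base window, against 35.6% in the flanks. Among intronic peaks of ranks 1 to 1919, 15.4% had an E2F match (10.04 to 22.3%), and among the weaker ones 8.42% (5.47 to 12.3%). Start peaks had 22.2% (19.9 to 24.6%) and 7.01% in the same ranks.

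A CHR match was rarer at intronic summits, 16.8% (13.4 to 20.7%), than in their flanks, 33.9% (30.7 to 37.1%), or over all such intron positions, 38.8%. All autosomal IDR peaks had 26.7%. Start peaks had 32.8% (30.7 to 35.0%) at summits and 30.05% in flanks. Distal intergenic peaks were low in the same way as intronic ones, with 20.5% at summits and 37.1% in flanks. The low intronic share was not seen in the strongest 50 intronic peaks, with 38.0% (24.65 to 52.8%). In ranks 1 to 1919 it was 22.8% (16.35 to 30.4%) and after them 13.7% (9.92 to 18.2%), against 39.1% and 21.5% of start peaks. Among intronic peaks, 26.55% (18.7 to 35.7%) of those near an internal start had a CHR match. Of the 321 others, 13.4% (9.87 to 17.6%) had it. The GC difference between summit and flank moves with this AT-rich word, and its part was not tested. The GATA word TGATAA was low at the summits in the same way, 3.23% against 8.29% in the flanks. So it was at start peaks, 2.76% against 8.30%, and at distal intergenic peaks, 1.65% against 9.80%.

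The adjoining arrangement has CHR letters that end 0 to 3 bases before the E2F letters, and the other order was not counted. It was present at 15 intronic summits (3.46%; 1.95 to 5.64%) and in 0 of 868 flanking windows, which allows up to 0.424%. Over all such intron positions 0.727% lie within 50 bp of this pair. Of E2F-bearing intronic summits 31.9% had the pair (19.1 to 47.1%), against 20.4% of all E2F matches in these introns, which lies inside that interval. Since the spacing was read off the strongest E2F peaks, the strength of those peaks says nothing about the pair, and its share at intronic summits is partly a selected value. Without the 10 printed peaks, the 8 others with the pair had a median rank of 1726 (229 to 3235) and the 29 others with E2F letters alone 2411 (1897 to 3186), intervals that overlap widely. Start peaks had the pair at 2.65% of summits (1.98 to 3.47%) and distal intergenic peaks at 1.65%.

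GAGAGA lay within 50 bp of 191 intronic summits (44.0%; 39.3 to 48.8%), against 29.3% of all autosomal IDR peaks, 20.3% of start peaks (18.5 to 22.2%) and 46.4% of distal intergenic peaks. Its flanking level was 4.49% (3.21 to 6.09%), and its level over all such intron positions 4.29%. The difference from start peaks was present in both parts of the IDR list. It was 46.3% against 18.3% in ranks 1 to 1919, and 42.8% (37.0 to 48.8%) against 23.9% (20.8 to 27.3%) after them. Strength was not matched within these parts: of the peaks in ranks 1 to 1919, 761 of 1237 start peaks but 44 of 149 intronic peaks stood in ranks 1 to 959. Distance to an internal transcript start made little difference, with 41.6% of the 113 peaks near to such a start and 44.9% of the 321 others. It was least frequent at the very top, with 1 of the 15 strongest, 38.0% of the strongest 50 and 44.0% of the strongest 100. In the 3838 strongest peaks of each replicate, peaks of this kind had it at 33.9% (29.7 to 38.3%) in replicate 1 and 47.0% (42.3 to 51.7%) in replicate 2, with intervals that did not overlap. On the strand of the host gene it was sense alone at 61 summits, antisense alone at 115 and on both at 15. No such split over intron bases or flanks is given here, so whether the uneven strands are particular to the summits was not tested.

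AGACGCAG, the word found by scanning, was at 18.2% of intronic summits (14.7 to 22.2%), 10.6% of start peaks and 18.6% of distal intergenic peaks, against 0.576% of intronic flanks and 0.632% of all such intron positions. In the 3838 strongest peaks of replicate 1 alone, peaks of this kind had it at 11.9% (9.10 to 15.1%), and in those of replicate 2 at 16.9% (13.6 to 20.7%). Either it or GAGAGA was at 50.2% of intronic summits. A match is a run of letters and not a measured binding site. No antibody, tag or input control was compared here, so whether these words go with LIN-35 itself was not tested.

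**Figure D5:**
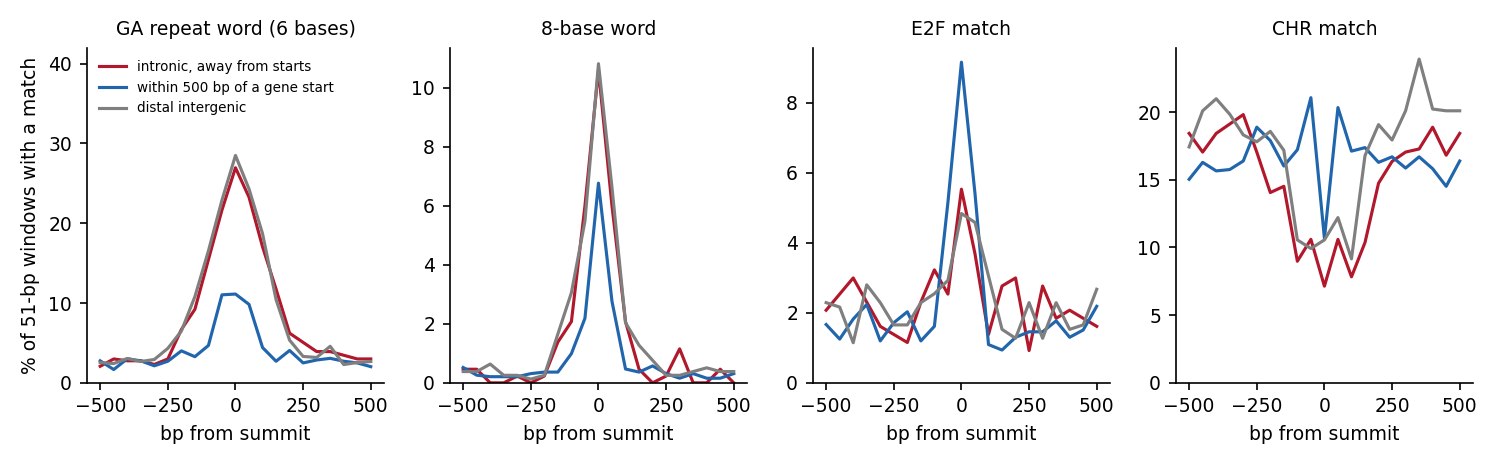
Share of 51-bp windows (%) with a match, on either strand, by distance of the window centre from the summit (bp), for intronic (red), start (blue) and distal intergenic (grey) peaks; panels have their own y axes from 0. The GA word and the 8-base word peaked at intronic and distal intergenic summits (26.96% and 10.6% at intronic ones), E2F letters peaked most at start peaks, and CHR letters dipped at the summits.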

How the data were processed

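LIN-35 ChIP-seq peaks of 2 biological replicates of L1 larvae (1 group) were described, from DNA of 150 to 350 bp, per the labels' size range. The deposited ce11 lists hold, per the submitters' manifest, peaks of each replicate (23835 and 30000 peaks), of both pooled (30000) and those that passed an IDR threshold (3838). The peak signal values are the authors' deposited values, and the sources used here do not give their scale, the aligner, the peak caller or the threshold. The IDR list equals the strongest pooled peaks, so ranks are by signal. Lists in ce10 were not used here. The number of reads behind a peak is unknown.

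Genes, transcripts and exons came from Ensembl release 115 and sequence from the RefSeq WBcel235 assembly. A replicate peak matched with at least 1 bp of overlap. Motifs were searched on both strands in 101-bp windows at summits, at 500 bp to each side, and around every eligible intron base. A gene was bound at its start when an IDR summit lay within 500 bp of its 5′ end. Neighbouring genes can share a peak, and peaks of 1 gene are not independent.

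All results are descriptions with exact Clopper-Pearson, order-statistic or Poisson 95% intervals over peaks or genes. No test between conditions was possible. The intronic peaks, gene lists and motifs were chosen with earlier results of these data known. GAGAGA became a main result, and AGACGCAG, the spacing of E2F and CHR, intron length bins and strongest subsets were added, after values were seen. Named genes are the hosts of the 15 strongest peaks, those with 3 or more peaks, the 2 strongest of each list, those nearest to the distance limit and those with a printed sequence. The other hosts of the nutrient signalling list were named after their values were seen. The symbols efn-1 and elt-5 did not match. Counting was checked on simulated positions and planted motifs. Python 3.11.15, NumPy 2.4.6, SciPy 1.17.1 and Matplotlib 3.10.9 were used.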

Additional observations from a re-analysis of the deposited data

How the results depend on the processing

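Under other settings, 60 values were counted as the same and 26 as moved. A share or median had moved when it left its interval. The number of intronic peaks has no interval, and values from 321 to 498 against 434 were counted as the same. In the stronger 1919 IDR peaks, 149 intronic peaks were left (8.45% of autosomal ones), with a median rank of 1266. There, 98.7% were found in both replicates, 64.4% in a first intron, 17.6% of hosts were bound at their start, 15.4% had E2F and 22.8% had CHR letters. With limits of more than 250 or 1000 bp from starts, the intronic share was 14.9% and 10.8%. At 250 bp, 35.5% lay within 500 bp of a protein-coding transcript start and 30.8% of hosts were bound. Both values can count peaks 250 to 500 bp from a gene start itself, so neither compares with its main value. Distance from every protein-coding transcript start left a share of 9.57%, with 50.8% in a first intron and 13.4% with CHR letters. Numbering in the longest transcript with an intron at the summit gave 37.6% first introns. Requiring an overlap of at least 50% of each peak lowered replication to 85.0%, and the strongest replicate peaks alone to 67.1%. Start windows of 250 and 1000 bp gave 15.02% and 39.9% of hosts bound, and the wider one can count intronic peaks themselves. Motif windows of 100 bp each side gave 14.7% for E2F, 29.5% for CHR and 59.0% for GAGAGA. Limits, windows and overlap rules shift such values by construction. For the stronger peaks the cause was not tested.

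Leaving out 1 replicate gave 449 to 481 peaks, shares of 13.4 to 14.4%, median ranks of 2527 to 2568, first-intron shares of 53.2 to 58.3%, internal-start shares of 23.3 to 25.6% and 21.5 to 22.3% of hosts bound. Motif shares were 9.80 to 9.98% for E2F, 15.6 to 20.8% for CHR and 33.9 to 47.0% for GAGAGA, all GAGAGA settings having been added after seeing the data. The lower GAGAGA share came from replicate 1 alone. The cause was not tested. No paired analysis was possible because there is 1 group. The ce10 lists were not run. With depth unknown and 1 group without an untagged control, weak peaks limit what can be said of single genes.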
